A study of Mus musculus with 9 samples.

Results

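The comparison described here is that of cochleae from calorie-restricted mice (CR) with cochleae from control mice (MC), both 15 months old. It rests on 6 of the 9 arrays of the series, chosen by their sample titles, 3 in each group. All mice were male C57BL/6, a strain known for early loss of high-frequency hearing and were housed singly. Control mice were given 84 kcal of food per week, and restricted mice 62 kcal per week, a 26% reduction that began at 2 months of age and lasted until 15 months. Each array carried RNA from 4 cochleae pooled from 2 mice, so that p-values measure the spread between such pools and each group holds few animals. The other 3 arrays carried 4-month-old controls (YC) on the control diet, with which both older groups share an estimate of the spread. They are given here as a reference only.

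The cochlea turns sound into nerve signals. Its hair cells rest on supporting cells, fibrocytes and the stria vascularis recycle potassium into the fluid that drives the hair cells, and spiral ganglion neurons carry the signal towards the brainstem. The organ lies inside the temporal bone, close to bone marrow, to the small muscles of the middle ear and to the brainstem and cerebellum. Skeletal muscle itself contracts when calcium released from the sarcoplasmic reticulum lets myosin thick filaments pull on actin thin filaments, which are anchored at the Z-disc, and it draws its energy from creatine phosphate, glycogen and mitochondria. The labels name the tissue as cochlea and do not mention muscle, brain or marrow.

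Values are log2(signal + 16) after quantile normalization, and a log2 change is the mean of the restricted arrays minus the mean of the older controls. A gene is called when its adjusted p in limma lies under 0.05. The array medians of the deposited signals were 535.2 to 626.6 in the restricted group, against 843.6 to 981.3 in the older controls. The young controls had a low-median array (young control 1, 526.8) and 2 high-median arrays (842.4 and 1103.9). Array median and diet therefore cannot be told apart between the groups compared here, and a comparison within one class of arrays was not possible. Young control 1 is given beside results because it is a low-median array of a mouse pool that was not restricted. Where array class, low or high median, enters the model as a term, young control 1 against the 2 other young controls alone sets that term. Values under it therefore rest largely on that array and do not separate diet from class. Young control 2 correlated at 0.53 to 0.58 with the restricted arrays and at 0.56 with young control 1. The defining markers of fibrocytes (4 of 4), spiral ganglion neurons (5 of 5), skeletal muscle (6 of 6) and cerebellum (5 of 5) passed the filter on low signal. Those of hair cells passed for 2 of 6 measured members: Slc26a5, Ocm, Pou4f3 and Slc17a8 did not.

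Most genes called with all 9 arrays were muscle genes, and these were lower in restricted cochleae than in older controls. In all, 25 of 27022 probe sets were called, 24 lower and 1 higher, which is 0.0925% of the probe sets tested. Of the 25, 24 belonged to 22 named genes, and 20 of the 22 stand on the muscle lists used here. The remaining probe set, which fell (-2.20 ± 0.33, limma adjusted p = 0.0455), was not assigned to a single gene. The other 2 were Hspb6, a small heat shock protein abundant in muscle, which fell, and the nuclear RNA Malat1, the one gene that rose. An unadjusted p under 0.05 was found for 5007 probe sets, 2428 higher and 2579 lower. The count of called probe sets depends on single arrays. In limma it was 0 without CR 2, CR 3, MC 1 or MC 3, 2 without CR 1, 49 without MC 2, 209 without YC 1 and 1147 without YC 2. With the 6 arrays of the comparison alone in the fit, which takes the spread from these pools and leaves out the young controls, 1846 probe sets passed in limma, 771 higher and 1075 lower, and all 25 were among them. Counts under this smaller fit are given below as those of the 6-array fit, beside those of all 9 arrays. Over all genes by their brightest probe set, 2.52% were called higher and 4.01% lower in it.

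**Figure D1:**
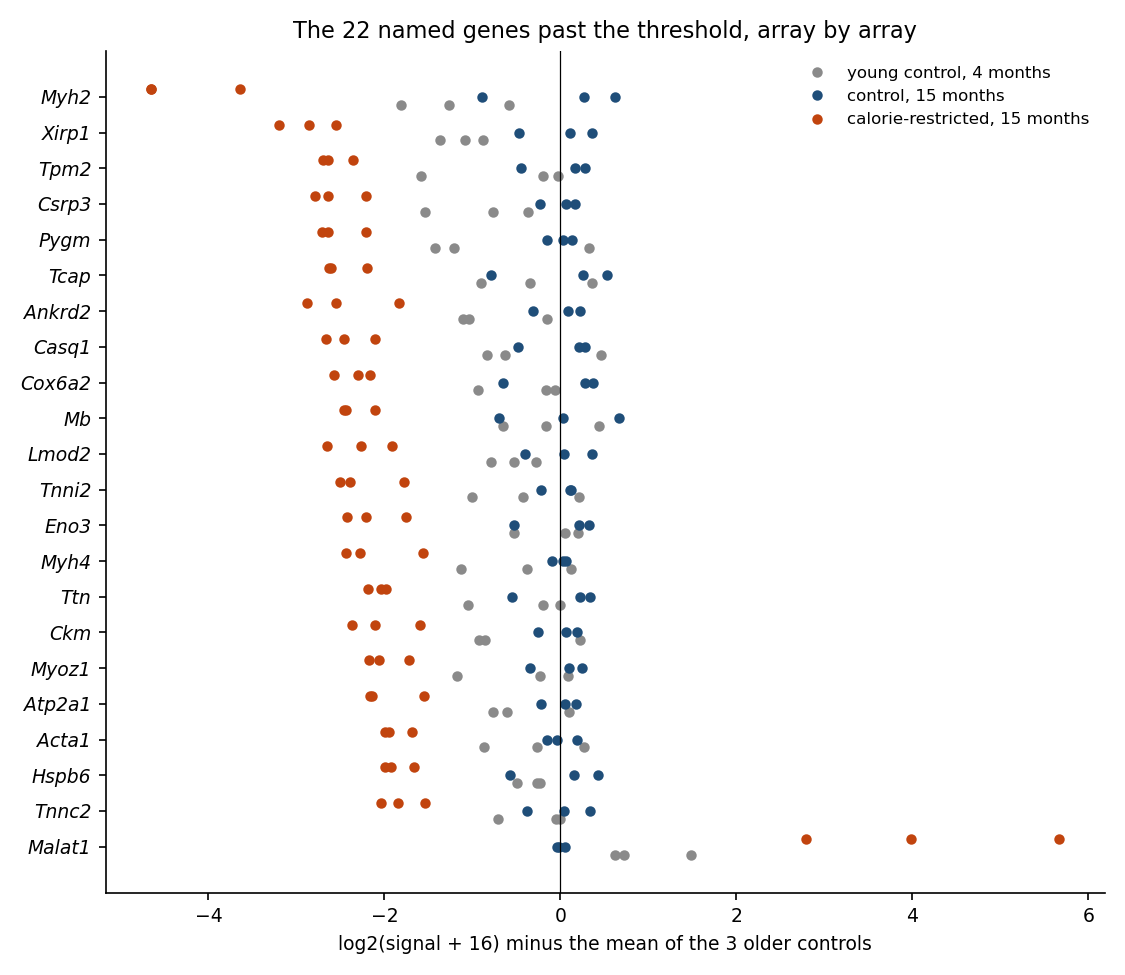
Each row is a called gene, and each point an array, placed by its log2(signal + 16) minus the mean of the 3 older controls. In the 21 genes that fell, the restricted arrays lie to the left of every control array, young control 1 included, and for Malat1 they lie to the right and far apart from one another.

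The myosin heavy chain Myh2 of fast oxidative fibres stood at 11.80, 10.80 and 10.80 in the restricted arrays, at 15.71, 14.56 and 16.06 in the older controls and at 14.18, 14.86 and 13.64 in the young controls. Every restricted array lay below every control array of either age. Its fall was 19.9-fold (a log2 change of -4.31 with an SE of 0.43 over 3 pools per group, adjusted p = 0.0233 in limma).

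Acta1, the actin of skeletal muscle thin filaments, stood at 15.34, 15.03 and 15.07 in the restricted arrays and at 17.21, 16.86 and 16.98 in the older controls. Young control 1, at 16.15, lay between the groups but above every restricted array. The calcium pump Atp2a1, which refills the sarcoplasmic reticulum after each contraction, stood at 15.52, 14.93 and 14.91 under restriction and at 17.12, 16.85 and 17.25 in older controls. Both are among the brightest signals of the older controls, and both fell by a factor of nearly the same size (3.66-fold and 3.87-fold, limma adjusted p = 0.0357 for each). For all 25 called probe sets, young control 1 lay outside the restricted range on the side of the older controls. Over all genes by their brightest probe set this held for 5053 of 13702. The called probe sets come from a fit that includes the young controls, so this count does not test array class.

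Promoter sequences are shown for called muscle genes because E-boxes are known as sites where the MyoD family binds and activates muscle genes. RefSeq promoters (assembly GRCm38.p6, the 250 bases before each transcript start) were found for 15 of the 20 called muscle genes, with 18 entries in all. The E-box CAGCTG, the same on both strands, stood in 9 of the 18 entries, or 50%, from 8 genes. Among the 9 are overlapping entries of Mb that hold the same E-box. Of all 32851 entries searched, 4271 held it, or 13%. On either strand, CATTCC, the core of the muscle element MCAT, stood in 16.7% against 12.6%, and TATAAA, the TATA box, in 16.7% against 12.4%. These shares are descriptions of sequence letters, which say nothing on whether a factor was bound. No share was taken over muscle genes that were not called, so they do not bear on the lower signals. The entries below are those of the first 4 called genes, ordered by p, that hold the E-box, each written 5′ to 3′ on the strand of the gene with the E-box in capitals.
Atp2a1 chr7:126463074-126463323: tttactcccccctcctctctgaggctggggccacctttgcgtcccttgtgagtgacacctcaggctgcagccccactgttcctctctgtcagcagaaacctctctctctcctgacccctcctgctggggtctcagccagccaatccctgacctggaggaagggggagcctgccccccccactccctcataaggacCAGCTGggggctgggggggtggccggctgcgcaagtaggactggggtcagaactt
Acta1 chr8:123894776-123895025: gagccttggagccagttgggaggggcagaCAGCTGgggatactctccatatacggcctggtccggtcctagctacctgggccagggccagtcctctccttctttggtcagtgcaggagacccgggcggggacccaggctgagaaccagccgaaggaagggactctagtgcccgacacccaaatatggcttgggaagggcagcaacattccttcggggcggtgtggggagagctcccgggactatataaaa
Casq1 chr1:172219896-172220145: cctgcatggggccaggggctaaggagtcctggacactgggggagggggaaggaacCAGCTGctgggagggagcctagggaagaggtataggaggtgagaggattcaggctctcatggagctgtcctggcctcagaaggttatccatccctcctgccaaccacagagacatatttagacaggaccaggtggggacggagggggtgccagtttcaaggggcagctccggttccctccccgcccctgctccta
Myh4 chr11:67237562-67237811: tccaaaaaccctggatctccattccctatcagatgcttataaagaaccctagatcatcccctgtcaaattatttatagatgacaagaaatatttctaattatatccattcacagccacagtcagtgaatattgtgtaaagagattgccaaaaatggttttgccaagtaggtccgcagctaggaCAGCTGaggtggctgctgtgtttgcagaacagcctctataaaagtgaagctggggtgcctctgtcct
The E-box begins 55 bases before the start of Atp2a1, 221 before that of Acta1, 195 before that of Casq1 and 67 before that of Myh4. Atp2a1, Acta1 and Casq1 lie on the minus strand and Myh4 on the plus strand. Myh2, with the largest fall, held none in this window.

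Across the 5 muscle lists, 94 of 100 genes passed the filter and 89 of the 94 were lower. By their brightest probe set 18 were called, against 0.139% of all 13702 named genes. In 75 of the 94 every restricted array lay below every older control, which held for 18.1% of all genes. In the 6-array fit 62 of the 94 were called lower and none higher, against 4.01% of all genes lower and 2.52% higher. The median log2 change was -1.76, beside 0.06 over all genes. With arrays grouped by their median as a term in the model the median was -1.10 and 87 of the 94 were lower, with no gene called. Median centring of the arrays, used instead of quantile normalization, moved the median over all genes from 0.06 to 0.65, and under it the 5 muscle lists still had negative medians, from -1.31 to -0.71. In bulk RNA, fewer muscle fibres in the pools and less RNA per fibre cannot be told apart.

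Thick filament genes were lower for 13 of 14 measured members, with a median of -2.02, and 2 were called (11 in the 6-array fit), Myh2 and the fast glycolytic myosin Myh4 (-2.09 ± 0.30, limma adjusted p = 0.0455). Mylpf, the fast regulatory light chain, stood at 15.19, 14.55 and 14.41 under restriction and at 16.40, 16.02 and 16.50 in older controls. It was lower by a log2 difference of -1.59 without passing the test (adjusted p = 0.0804). The member on the other side was Mybph, a myosin-binding protein, at 0.91 ± 0.64, whose sign turned with array class as a term.

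Thin filament genes were lower for 17 of 18 measured members, with a median of -1.84 and 4 called by their brightest probe set (9 in the 6-array fit). These were Acta1, the fast troponins Tnni2 and Tnnc2, which make the filament respond to calcium, and Lmod2, which elongates the filament. Tnni2 was called by both of its probe sets, with log2 changes of -2.22 and -2.16. Tpm2, a tropomyosin that blocks the myosin sites at rest, was called by 2 of its 4 probe sets (-2.57 and -2.56) and stood at -1.24 by the brightest.

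Z-disc and stretch-response genes were lower in all 23 cases, with a median of -1.82, and 5 were called (19 in the 6-array fit). Xirp1, an actin-binding protein that appears at damaged or loaded sarcomeres, stood at 8.71, 8.37 and 9.02 under restriction against 11.10, 11.67 and 11.92 in older controls. Ankrd2, which responds to stretch, stood at 10.27, 9.55 and 9.22 against 11.79, 12.32 and 12.19. The groups were far apart for both, and both are dim beside Acta1. The other called members were Csrp3, Tcap and Myoz1, which tie titin and signalling proteins to the Z-disc. Titin itself, Ttn, was called by 1 of its 5 probe sets (-2.07), and all of them were lower, from -2.23 to -0.25.

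Genes of excitation-contraction coupling were lower for 18 of 19 measured members, with a median of -1.56. The pump Atp2a1 and the calcium store protein Casq1 were called, and 12 members in the 6-array fit. Casq1 stood at 12.39, 11.83 and 12.03 under restriction against 14.70, 14.02 and 14.77 in older controls. The release channel Ryr1 was at -2.18 ± 0.42 (adjusted p = 0.0938) and Pvalb, a calcium buffer of fast fibres and of some neurons, at -1.49 ± 0.30 (adjusted p = 0.101), with no overlap between the groups for either.

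Genes of muscle energy supply were lower for 18 of 20 measured members, with a median of -1.32, and 5 were called (11 in the 6-array fit). The oxygen store myoglobin, Mb, stood at 13.53, 13.56 and 13.88 under restriction against 16.65, 15.29 and 16.02 in older controls. Ckm, the muscle creatine kinase, stood at 15.28, 14.51 and 14.77 against 17.06, 16.62 and 16.94. The enolase Eno3, the cytochrome oxidase subunit Cox6a2 and the glycogen phosphorylase Pygm were the others. Glycolytic and oxidative enzymes of muscle thus stood on the same side, with falls of 4.06-fold (Ckm) to 5.73-fold (Pygm) among the called members.

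By their median range, slow fibre genes spread more widely among pools than fast fibre genes in all 3 groups. The 3 older controls covered a median range of 0.48 log2 units for 9 fast genes and of 2.86 for 5 slow genes. The ranges were 0.73 and 2.18 in the restricted group and 1.21 and 2.41 in the young controls. Not every slow gene spread widely: Tnnc1 covered 0.22 in the restricted group and 0.24 in the young controls, and Myl2 0.66 in the latter. Slow genes were also dimmer, with deposited signals of Myh7 of 35.6 in CR 1 and 47.6 in CR 2. The part of low signal in the spread was not tested. Myh7, the slow myosin, stood at 9.69, 10.66 and 12.73 in the older controls and at 6.33, 6.38 and 8.51 under restriction. Tnnc1, the slow troponin C, stood at 9.48, 10.88 and 12.96 against 9.61, 9.60 and 9.39. Older control 3 was the highest array for both genes, and for Tnnc1 older control 1 lay within the restricted range. All 9 fast genes kept the groups apart and 6 were called, whereas 2 of the 5 slow genes did and none was called. The medians of the differences were close, -2.09 for fast and -2.24 for slow genes. Whether the fibre types differ in their response was not tested.

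**Figure D2:**
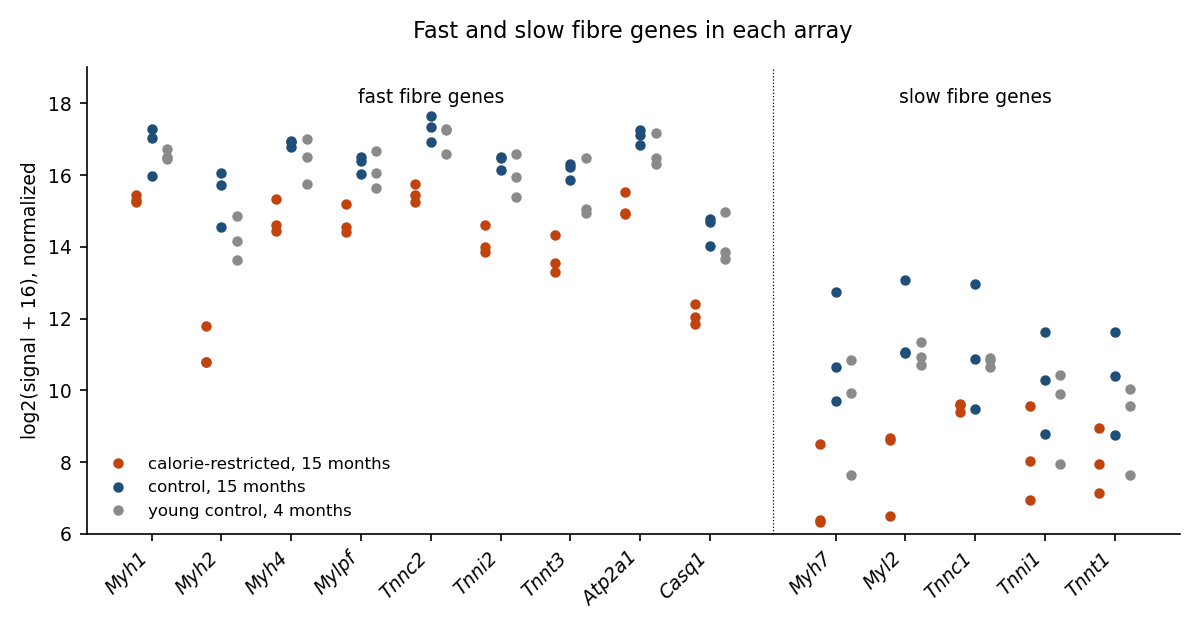
Normalized log2 signals of 9 fast and 5 slow fibre genes, with each point an array. Among fast genes the restricted arrays lie below all older controls, while among the dimmer slow genes the older controls spread over up to 3.49 log2 units and overlap the restricted arrays for Tnnc1, Tnni1 and Tnnt1.

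Many proteins exist in a skeletal muscle form and in a partner form, which need not be absent from muscle. The restricted arrays differed between the forms. Of 24 pairs listed, 20 were measured. The muscle form was lower in 19 of the 20, and it was lower relative to its partner in all 20. The partner was higher in 17 of the 20, where 7478 of all 13702 genes were. Some of these changes were smaller than their SE, such as Actn4 at 0.016 ± 0.176 and Casq2 at 0.105 ± 0.376. The median change was -1.77 for muscle forms and 0.30 for partners, and 6 muscle forms but no partner were called. The difference within the pair kept the groups apart in 16 of the 20 and stayed negative in 16 with array class as a term. Taken singly, 18.1% of all genes had every restricted array below every older control, and no share over other pairs was taken.

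In cytochrome oxidase, Cox6a2 stood at 12.80, 12.40 and 12.67 under restriction against 15.24, 14.32 and 15.34 in older controls. Its partner Cox6a1 stood at 16.83, 17.00 and 16.85 against 16.75, 16.61 and 16.70, a log2 difference of 0.21 ± 0.15. The muscle form was thus low in every restricted pool and the common form was as bright as in controls or slightly brighter. Creatine kinase gave -2.02 ± 0.30 for Ckm and 0.91 ± 0.19 for Ckb, the brain form. The reticulum pump gave -1.95 ± 0.25 for Atp2a1 and 0.07 ± 0.17 for Atp2a2, whose sign turned with array class as a term. For actin, Actb gave 0.99 ± 0.40 by its brighter probe set and -1.90 by the other, so that no direction is given for it.

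Pairs that stood close together were those of Cox8b with Cox8a (0.03 and 0.44), Cox7a1 with Cox7a2 (-0.23 and 0.11) and Fbp2 with Fbp1 (-0.32 and -0.30). The values of Cox7a1, Fbp2 and Fbp1 turned positive with arrays centred on their median. Cox8b and Cox7a1 are also known from brown fat, and Ucp1, the uncoupling protein that defines brown fat, was higher by 2.01-fold in the same comparison. The part of fat in these pairs was not tested.

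**Figure D3:**
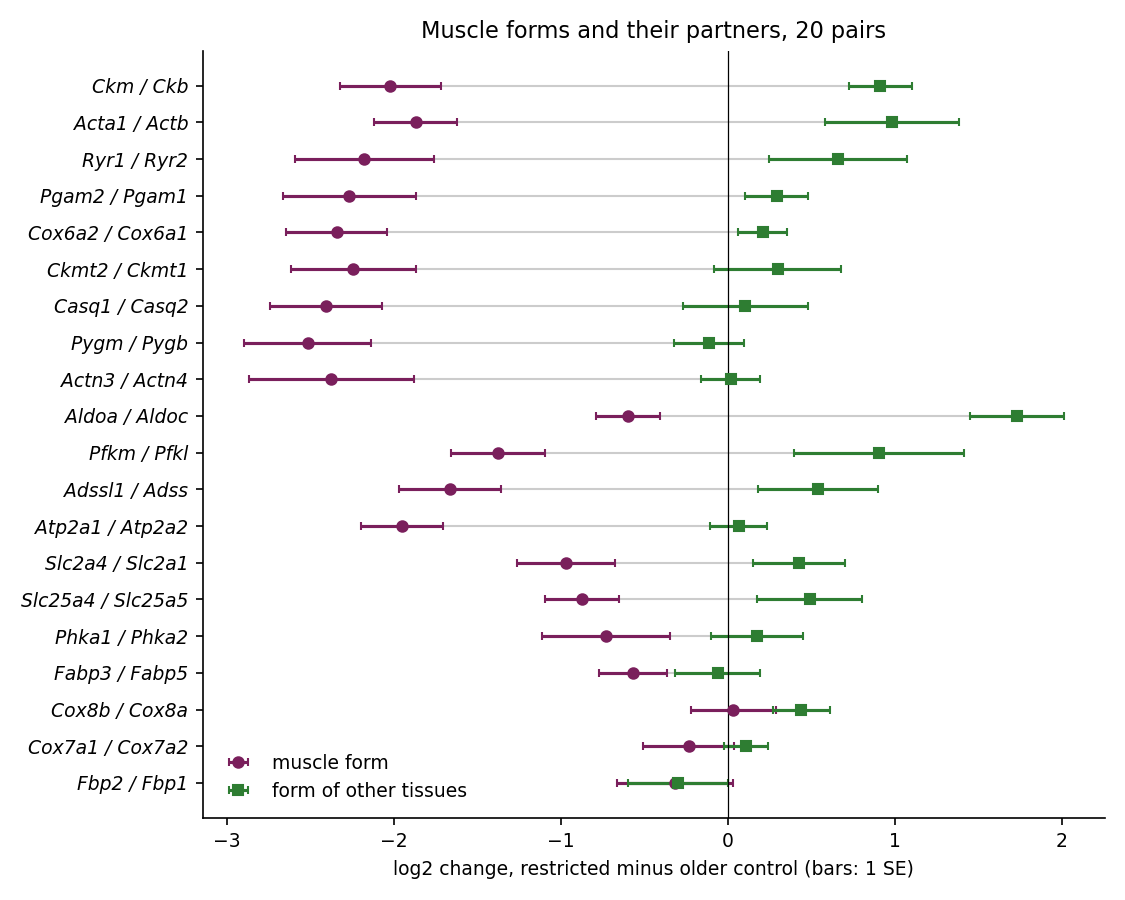
Log2 change of the muscle form (circles) and of the partner form (squares) for 20 pairs, with bars of 1 SE. The circles lie to the left of the squares in every pair, and the gap is smallest for Fbp2, Cox7a1 and Cox8b.

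Regulators of muscle identity were lower for 8 of 10 measured members with a median of -0.60, and none was called. The list median was -0.15 with array class as a term, under which 5 of the 10 were higher, and -0.35 without MC 1. Mef2c, a transcription factor of differentiated fibres, was at -1.13 ± 0.26 with no overlap (adjusted p = 0.145), and Myf6, a MyoD relative kept on in adult fibres, at -1.69 ± 0.60 with overlap. The atrophy and FoxO list was higher for 10 of 15 measured members with a median of 0.25, which turned to -0.02 under the class term, and was 0.07 without MC 1 and 0.15 without MC 3. Its ubiquitin ligases stood below the controls: Fbxo32 at -0.38 ± 0.26, a value that turned positive with arrays centred on their median, and Trim63 at -1.07 ± 0.58. Both overlapped between groups.

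Malat1, a long RNA of nuclear speckles, was called by 1 of its 6 probe sets. That probe set stood at 12.03, 14.90 and 13.22 under restriction, at 9.20, 9.22 and 9.29 in older controls and at 10.71, 9.96 and 9.85 in young controls (log2 change 4.15 ± 0.58, limma adjusted p = 0.0441). Its brightest probe set stood at 12.32, 12.55 and 12.53 against 12.29, 12.42 and 12.39, a difference of 0.10 ± 0.20. The restricted arrays were far apart on the first and level with the controls on the second. The other 4 probe sets were at 1.76, 1.63, 0.42 and -0.37, and on the first pair of these every restricted array lay above the older controls. Over all genes with 2 or more tested probe sets, 2872 of 5463, or 52.6%, had probe sets of opposite sign, whereas among muscle genes 5 of 26 did.

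Several genes next in order of p on the higher side have more than 1 probe set. Tug1, a long non-coding RNA, was at 2.44 ± 0.42 by one probe set and 0.51 at the lowest of 3 (adjusted p = 0.0804). Matr3, a nuclear matrix protein, was at 1.57 ± 0.26 by one and 0.21 at the lowest of 4. Crls1, which makes the mitochondrial lipid cardiolipin, was steadier at 1.58 and 1.40 by its 2 probe sets. Its first probe set stood at 11.44, 11.44 and 11.48 under restriction and at 9.97, 9.88 and 9.77 in older controls, but the young controls, at 11.23, 11.16 and 10.66, lay nearer to the restricted arrays.

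For Adal, an adenosine deaminase-like enzyme, and Akr1c18, a steroid-metabolizing reductase, the young controls also lay nearer to the restricted arrays and mixed with them. Akr1c18 stood at 10.55, 10.23 and 10.50 under restriction, at 8.06, 8.47 and 8.21 in older controls and at 10.84, 10.15 and 10.75 in young controls. Here the older controls were the low group and the other arrays, low-median and high-median alike, did not separate. The changes were 2.18 ± 0.37 for Akr1c18 and 2.90 ± 0.50 for Adal, neither called (adjusted p = 0.0795 for each). Dnase1, a secreted nuclease, stood at 14.04, 14.64 and 14.54 against 13.39, 13.14 and 13.30 in older controls and 13.25, 13.44 and 12.96 in young controls, so that the restricted arrays were the high group (1.13 ± 0.21, adjusted p = 0.0896).

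Genes of cerebellar neurons were higher for 17 of 20 measured members under restriction with a median of 0.84, which was 0.72 with array class as a term and 0.41 without CR 1. In 10 of the 20 the restricted arrays all lay above the older controls, where 18.5% of all genes did so. None was called with 9 arrays. In the 6-array fit 7 were called higher and 1 lower (35% and 5%, against 2.52% and 4.01% of all genes). Gabra6, a receptor subunit of cerebellar granule cells, stood at 12.89, 11.21 and 10.95 under restriction, at 9.93, 9.02 and 9.48 in older controls and at 10.96, 9.66 and 10.26 in young controls. CR 1 was the highest array, and young control 1 lay between CR 2 and CR 3. Pcp2, a Purkinje cell gene, was also highest in CR 1 within the restricted group, at 13.12 against 11.60 and 11.63. The list mean, relative to the older controls, was 1.54 in CR 1, 0.75 in CR 2, 0.62 in CR 3 and 0.49 in young control 1. The transcription factors Zic4 (-0.94) and Zic5 (-1.49, with another probe set at 1.28) stood on the lower side, and Zic5 was the one called lower in the 6-array fit.

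Forebrain-type neuron genes did not share this side, with 4 of 9 higher and a median of -0.04, a sign that turned under 10 of the alternative settings. Camk2a, a kinase of forebrain synapses, was at -0.71 ± 0.46. It became positive with arrays centred on their median, a setting that put the median over all genes at 0.65. Astrocyte and glial genes were higher for 19 of 20 measured members, all but Ptprz1, with a median of 0.91 that was 0.24 with array class as a term. None was called with 9 arrays and 6 were called higher in the 6-array fit, or 30%, against 2.52% of all genes. Among these 6 were the glutamate transporters Slc1a3 and Slc1a2, which clear transmitter, and the aldolase Aldoc. Aqp4, the water channel of astrocyte endfeet and of some cochlear supporting cells, stood at 12.26, 12.00 and 11.78 against 10.90, 11.15 and 10.92 in older controls. Young control 1, at 12.01, lay within the restricted range, and the difference was -0.059 with array class as a term.

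Myelin genes of the central and of the peripheral type were listed apart. Central myelin genes were higher for 14 of 14 measured members, with a median of 0.51, which was 0.44 with array class as a term and 0.27 without MC 3. Mobp, an oligodendrocyte protein, stood at 12.63, 12.29 and 12.50 under restriction against 11.61, 11.84 and 10.62 in older controls (1.11 ± 0.36, adjusted p = 0.187). Peripheral myelin and Schwann cell genes were higher for 4 of 11 measured members with a median of -0.21. It was -0.36 without MC 1 and -0.13 without MC 2. Under median centring it was 0.66 and in the deposited scaling 0.04, where all genes had 0.65 and 0.03. Ngfr, a neurotrophin receptor of Schwann cells and neurons, was at -0.69 ± 0.28, and at 0.08 under median centring. In the 6-array fit 1 member of the central list, Cldn11, and 2 of the peripheral list, Mpzl2 and Egr2, were called higher and none lower. Whether the signal of Mpzl2 came from Schwann cells was not tested. Over all genes 2.52% were called higher and 4.01% lower. Cldn11 also stands on the stria list and Egr2 on that of immediate early genes, and another probe set of Mpzl2 was at -0.175. The difference between the lists was not tested.

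**Figure D4:**
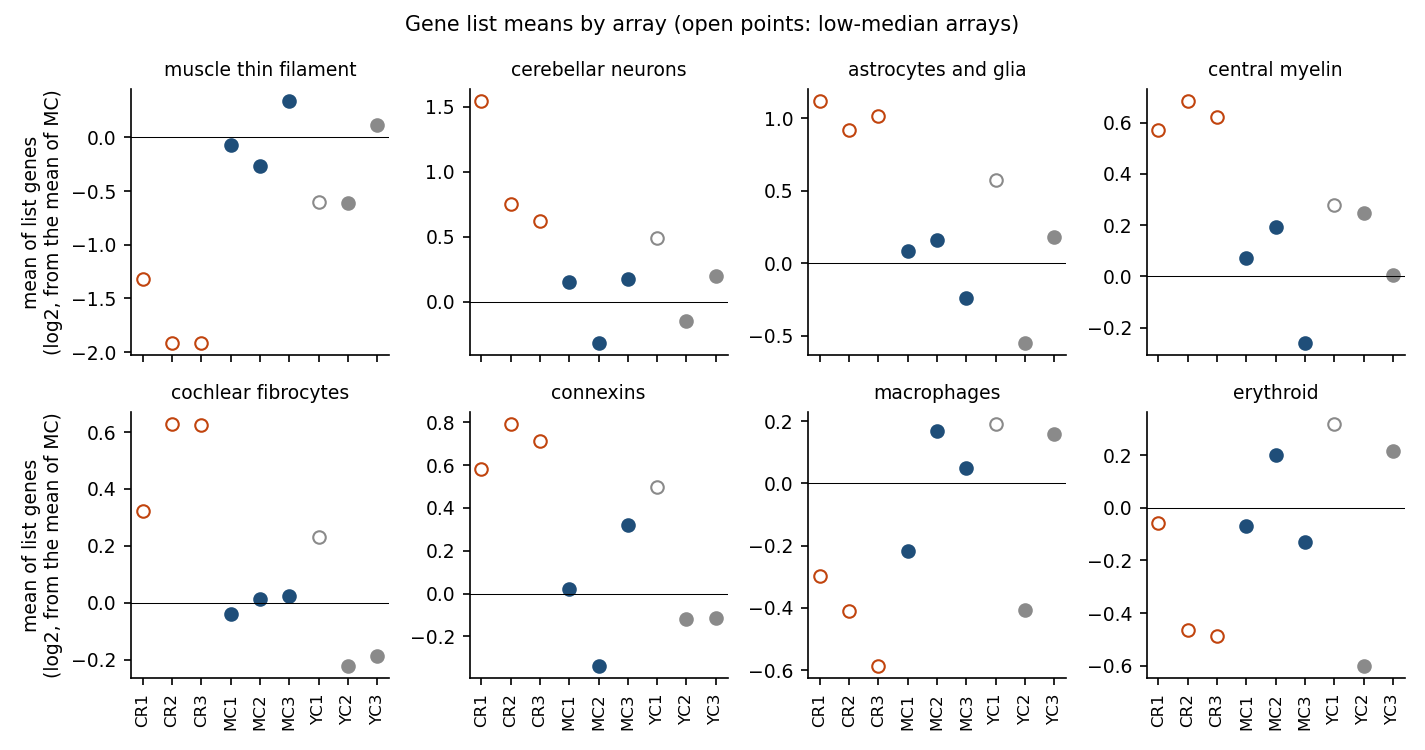
Mean of the list genes in each array, in log2 units from the mean of the 3 older controls, with open points for low-median arrays. CR 1 has the highest cerebellar mean (1.54) and the lowest fibrocyte mean of the restricted group (0.32), and young control 1 lies between the restricted arrays and the older controls for glial genes (0.57), connexins (0.50), fibrocytes (0.23), cerebellar genes (0.49) and muscle (-0.60), and above every older control for macrophage (0.19) and erythroid genes (0.32).

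Fibrocyte genes, from the spiral ligament and the limbus, stood higher for 22 of 27 measured members with a median of 0.61, and 0.12 with array class as a term. None was called with 9 arrays. In the 6-array fit Apod, Gjb6, Otos, Coch and Tbx18 were called higher, or 18.5%, against 2.52% of all genes. Otos, the secreted protein otospiralin, stood at 15.31, 15.78 and 15.74 under restriction, at 14.63, 14.26 and 14.83 in older controls and at 15.03, 14.58 and 14.08 in young controls. Coch, the matrix protein cochlin, stood at 15.06, 15.79 and 15.84 against 14.75, 14.61 and 14.40. For both, CR 1 was the lowest restricted array and still above the older controls. The differences were 1.04 ± 0.25 and 0.98 ± 0.26 (limma adjusted p = 0.146 and 0.156). The list means were 0.32 in CR 1, 0.63 in CR 2, 0.62 in CR 3 and 0.23 in young control 1.

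Connexins, which join supporting cells and fibrocytes into the network that returns potassium, were higher for 8 of 8 measured members with a median of 0.72, and 0.28 with array class as a term. Gjb2 stood at 13.82, 14.43 and 14.16 against 13.41, 12.60 and 13.48 in older controls. Gjb6 stood at 14.32, 14.78 and 14.53 against 13.57, 13.49 and 13.39. Neither gene overlapped between the groups, and neither was called (limma adjusted p = 0.175 and 0.146), although Gjb6 passed in the 6-array fit. Genes of supporting cells and of the tectorial membrane stood higher for 15 of 22 measured members, with a median of 0.70 that turned to -0.10 with array class as a term. Epyc, a matrix protein of the cochlear epithelium, was at 0.99 ± 0.30, and 0.07 with that term.

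Potassium channel genes were higher for 21 of 33 measured members with a median of 0.39, and 0.24 without MC 3. Kcnj10, which sets the resting potential of strial intermediate cells, stood at 11.12, 11.08 and 11.07 under restriction and at 9.41, 9.31 and 9.28 in older controls. The young controls stood at 10.95 (young control 1), 9.28 and 9.82, so that young control 1 lay just below the restricted arrays. The difference of 1.76 ± 0.42 passed in the 6-array fit, and array class as a term left 0.36 of it. Kcnh2, a delayed rectifier, was at 0.999 ± 0.37 and 1.05 with the term. Stria genes as a list were higher for 8 of 13 measured members with a median of 0.20, which was 0.40 without CR 1, 0.084 without CR 2 and 0.47 without MC 3. Melanocyte genes were higher for 6 of 13 with a median of -0.23, which was -0.088 without CR 1 and 0.31 with a filter at the 60th percentile. Under median centring it was 0.66 and in the deposited scaling 0.04, where all genes had 0.65 and 0.03.

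Of 38 hair cell genes listed, 27 were on the array and 14 passed the filter, with 8 higher and 6 lower and a median of 0.47, which was 0.21 without MC 1 and 0.30 without MC 2. In the 6-array fit Calb2 was called higher and Whrn and Pcdh15, both proteins of the hair bundle, lower. These are 7.14% and 14.3% of the list, against 2.52% and 4.01% of all genes, and rest on few genes. Myo7a, a motor of the hair bundle, stood at 10.53, 10.79 and 10.49 against 9.87, 10.47 and 8.98 in older controls. Otof, which couples calcium to release at the hair cell synapse, stood at 9.46, 10.49 and 10.27 against 10.57, 9.96 and 11.31. Both are dim, and the second overlapped between the groups.

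Spiral ganglion neuron genes were higher for 18 of 29 measured members with a median of 0.25, which was 0.09 without MC 1 and 0.39 without MC 2. The neurofilament genes, which build the axon's scaffold, stood close to the controls: Nefl at -0.04 ± 0.22, Nefm at 0.18 ± 0.28 and Nefh at -0.21 ± 0.27. The signs of Nefl and Nefh turned in the table as deposited (0.18 and 0.16). Prph, a filament protein of thin unmyelinated neurons, stood at 11.50, 11.66 and 11.90 against 12.29, 13.20 and 12.97 in older controls (-1.13 ± 0.35, adjusted p = 0.184). Calb2, a calcium buffer of many neurons and hair cells, stood at 13.39, 14.02 and 14.23 against 12.66, 12.29 and 11.96. Prph was thus low and Calb2 high in all 3 restricted pools, and both passed in the 6-array fit. With array class as a term Prph was at -1.42 and Calb2 at 0.47.

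**Figure D5:**
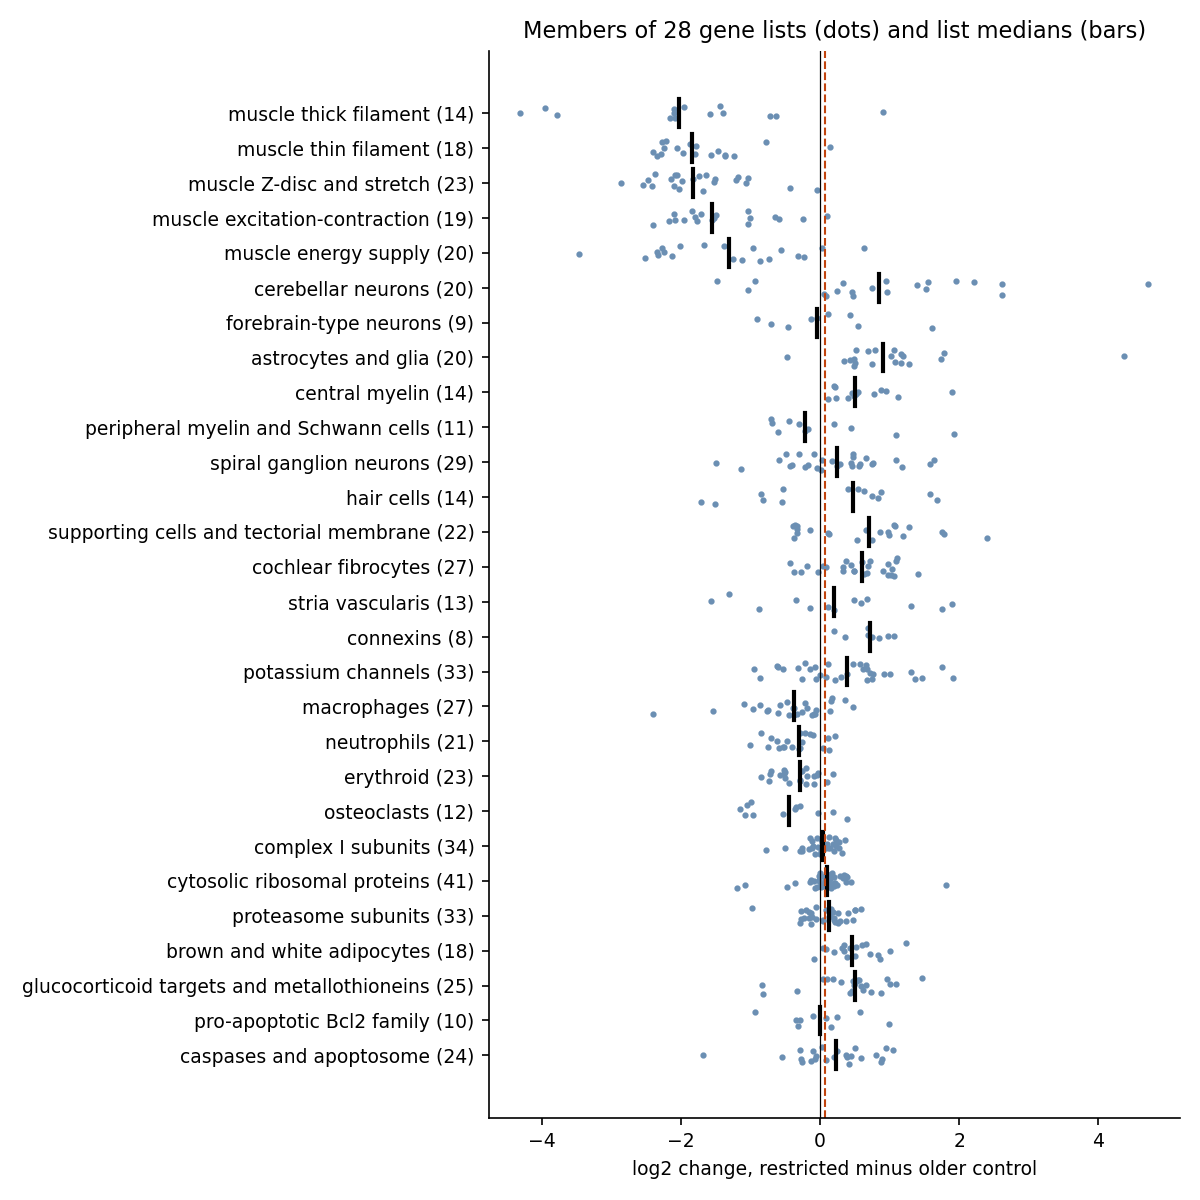
Log2 change of each measured member (dots) and the median (black bar) of 28 gene lists, with the number of members in parentheses and the median over all genes as a dashed line. The 5 muscle lists lie between -2.02 and -1.32, brain and cochlear lists mostly to the right of 0, and ribosomal, proteasome and complex I genes close to the dashed line.

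Blood and marrow genes were mostly lower. Macrophage genes were lower for 22 of 27 measured members with a median of -0.37, neutrophil genes in 17 of 21 with -0.30 and erythroid genes in 21 of 23 with -0.28. With arrays centred on their median these medians were 0.16, 0.30 and 0.49, all below the 0.65 over all genes under that setting. With array class as a term they were further below 0 (-0.77, -1.09 and -1.06), beside -0.09 over all genes. Without MC 2 the macrophage median was -0.23. None of these genes was called with 9 arrays. In the 6-array fit the macrophage genes Adgre1 and Trem2 were called lower, or 7.41%, against 4.01% of all genes. No neutrophil or erythroid gene passed. Adgre1, a surface receptor of macrophages, stood at 11.09, 11.19 and 10.89 against 11.91, 11.99 and 12.18 in older controls, and young control 1, at 11.80, lay with the controls. Ngp, a granule protein of maturing neutrophils, stood at 14.81, 14.30 and 14.17 against 15.26, 15.43 and 14.84, a difference of -0.75 ± 0.23 that became 0.20 with arrays centred on their median.

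Genes of the machinery that all cells share had medians close to that of all genes. Complex I subunits had a median of 0.04 over 34 genes, complexes II to V 0.06 over 37, cytosolic ribosomal proteins 0.10 over 41 and proteasome subunits 0.13 over 33, beside 0.06 over all genes. No gene of these lists was called with 9 arrays. The ribosomal and proteasome medians turned negative with array class as a term (-0.15 and -0.23), as did that over all genes (-0.09), and those of complex I (-0.07) and of the other complexes were at or below 0 without MC 2. The proteasome median was -0.012 without MC 3. Uqcrh, a hinge subunit of complex III, had the smallest p within these respiratory lists, which leave out the called muscle subunit Cox6a2. It stood at 15.41, 15.16 and 15.52 under restriction against 14.72, 14.60 and 14.53 in older controls (0.75 ± 0.15, limma adjusted p = 0.111), and it passed in the 6-array fit.

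Fat cell genes were higher for 17 of 18 measured members with a median of 0.47, and 0.29 with array class as a term. Ucp1 stood at 16.29, 16.30 and 16.30 under restriction, at 15.63, 15.44 and 14.80 in older controls and at 15.27, 15.12 and 15.50 in young controls. The restricted arrays were above every control, young control 1 included (limma adjusted p = 0.109), and the gene passed in the 6-array fit. Glucocorticoid targets and metallothioneins were higher for 22 of 25 measured members with a median of 0.50, and array class as a term brought it to 0.16, with 15 of the 25 higher. Mt2, a metal-binding protein induced by stress hormones, stood at 14.85, 14.60 and 14.63 against 13.63, 13.70 and 13.49, with young control 1 at 14.34. Pdk4, a fasting-induced brake on glucose oxidation that muscle makes in quantity, was on the other side at -0.82 ± 0.21. It turned positive with arrays centred on their median, a setting that put the median over all genes at 0.65.

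Genes of cell death, the process named in the title of the series, showed no called member with 9 arrays. The pro-apoptotic Bcl2 family was higher for 5 of 10 measured members with a median of -0.01, a sign that turned under 6 alternative settings. It was -0.31 under the class term and -0.37 with the array median as a covariate, and 0 of the 10 were higher under the first. Bak1, which opens the mitochondrial outer membrane, stood at 10.22, 9.69 and 9.67 against 9.86, 10.02 and 10.02 in older controls (-0.10 ± 0.51). Its groups overlapped, and its sign turned with arrays centred on their median. Bcl2l11, which encodes Bim, stood at 12.76, 12.19 and 11.97 against 13.05, 13.03 and 13.66. These groups did not overlap, but the difference (-0.94 ± 0.34, adjusted p = 0.21) was -0.05 with array class as a term and another of its 4 probe sets was at 0.48. The anti-apoptotic family was higher for 6 of 7 measured members with a median of 0.10, which was -0.079 with the array median as a covariate and, without CR 2, MC 1 and MC 2, 0.16, 0.062 and 0.30. Caspase and apoptosome genes were higher in 15 of 24 with a median of 0.22, which was -0.023 with array class as a term and 0.084 without MC 3. In the 6-array fit no Bcl2 family gene passed, and Casp14, a caspase of skin differentiation rather than of cell death, was called lower, with a difference of 0.10 once array class was a term.

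Sirt3 and Idh2 act in one mitochondrial route, in which the deacetylase Sirt3 is known to activate the isocitrate dehydrogenase Idh2, a source of NADPH for antioxidant defence. Sirt3 stood at 11.72, 11.68 and 11.72 under restriction, at 10.35, 10.67 and 11.19 in older controls and at 11.27, 11.09 and 11.47 in young controls. Idh2 stood at 12.37, 12.68 and 12.54 against 13.78, 13.57 and 13.57 in older controls and 12.85, 13.00 and 12.95 in young controls. The restricted arrays were therefore the highest for Sirt3 and the lowest for Idh2, without overlap with any control. Neither was called: 0.97 ± 0.28 (limma adjusted p = 0.171) and -1.11 ± 0.18 (adjusted p = 0.0616), and in the 6-array fit Idh2 passed and Sirt3 did not. A second probe set of Idh2 was at 0.37, and Idh2 is abundant in muscle, whose genes were lower in the same arrays, so that its direction in cochlear cells was not tested.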

How the data were processed

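Pooled cochlear RNA was isolated with TRIzol and copied into biotin-labelled cRNA, per the labels' protocols, and the submitters' processing notes name GCOS 1.3. The deposited values are linear intensity signals of 45037 probe sets on 9 arrays, 1 colour each, and their 2%-trimmed mean lay between 1494 and 1496 on every array, whose scaling step no label records. The signal algorithm and filters were not given in the sources used. A probe annotation gave 1 gene for 34945 probe sets, several for 932 and none for 9160, and 34741 symbols were updated through RefSeq (GRCm38.p6).

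Signals were transformed to log2(signal + 16), quantile normalized over 9 arrays and filtered at the 40th percentile of mean signal, which left 27022 probe sets and 13702 named genes. Group means were fitted in limma 3.58.1 under R 4.3.3 (lmFit, eBayes with a variance trend), with Benjamini-Hochberg adjustment over all 27022. The scale understates changes of dim probe sets, and 3 arrays per group limit the precision, with a median SE of 0.43. The steps were tested on simulated data. Array class means a deposited median signal below or above 700.

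Genes stand by their brightest probe set unless another is named. Named genes were those called, the next 20 in each direction by p without overlap, up to 4 members of each of 59 lists by p, the isoform pairs and a short fixed set. Ptprz1, Nefm, Zic4, Actb, Myo7a, Otof, Tnnc1, Trim63 and other list members shown as examples were chosen with their values seen. The members, lists, settings and tests were chosen with earlier results of these data known. Replicate numbers did not pair the samples: same-numbered restricted and older control arrays had deviations correlated at -0.008, -0.064 and 0.036. Alternatives were other pseudocounts and filters, other scalings, no variance trend, array weights, fewer arrays in the fit, array class or median as a term, a replicate block and each array left out.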

Additional observations from a re-analysis of the deposited data

How the results depend on the processing

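The count of called probe sets, 25 with all 9 arrays, was 0 with arrays centred on their median, without the variance trend, with array class as a term and with the array median as a covariate. At an unadjusted p under 0.05 limma found 7782, 4980, 934 and 1892 under these settings. It was 7 in the table as deposited, 1 higher and 6 lower. It was 3397 with array weights, whose estimate did not fully converge (1793 higher and 1604 lower), 1846 with the restricted and older control arrays alone in the fit, and 1878 with them alone in the normalization too. Leaving out 1 array at a time gave 0 to 1147. Replicate numbers did not pair the samples, and with the replicate number as a block the count was 0, with 4632 at an unadjusted p under 0.05. Signs turned for some named genes. Centring the arrays on their median put the median over all genes at 0.65, so values that turned positive under it are read beside that shift. With array class as a term Aqp4 was at -0.059, Atp2a2 at -0.16, Casp14 at 0.10, Col1a2 at 0.014, Col9a3 at -1.36, Cox7a1 at 0.29, Mybph at -0.39, Nefh at 0.47 and Nefl at 0.41. With the array median as a covariate Atp2a2 was at -0.036, Cox7a1 at 0.18, Mybph at -0.41, Nefh at 0.34 and Nefl at 0.23. With arrays centred on their median Bak1 was at 0.028, Camk2a at 0.045, Col1a2 at 0.22, Col3a1 at 0.32, Col6a1 at 0.28, Cox7a1 at 0.74, Fbp1 at 0.11, Fbp2 at 0.31, Fbxo32 at 0.36, Nefh at 0.78, Nefl at 0.80, Ngfr at 0.081, Ngp at 0.20, Pdk4 at 0.12 and Ptprz1 at 0.28. In the table as deposited Cox7a1 was at 0.12, Nefh at 0.16 and Nefl at 0.18. By the mean of all probe sets Actb was at -0.46, Cox7a2 at -0.054, Nefl at 0.16 and Ptprz1 at 0.75. With 1 array left out at a time, Cox8b ranged from -0.078 to 0.20, Nefl from -0.227 to 0.13 and Atp2a2 from -0.007 to 0.18. The cause of these shifts was not tested. Array class and diet cannot be told apart, and 3 pools per group limit the precision.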

Other observations

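Of 27 collagen chains 12 were higher under restriction, with a median log2 change of -0.12, which was 0.02 without CR 1 and 0.051 without MC 1. With arrays centred on their median it was 0.50, beside 0.65 over all genes. Examples chosen with their values seen were the fibrillar chains Col1a2 at -0.70 ± 0.25 and Col3a1 at -0.65 ± 0.27, and Col6a1, a chain of the matrix around muscle fibres and other cells, at -0.66 ± 0.20. With arrays centred on their median these 3 were at 0.22, 0.32 and 0.28, and with array class as a term Col1a2 was at 0.014. Of the chains of cartilage and of the tectorial membrane, examples on the other side were Col11a2 at 2.40 ± 0.99 and Col9a3 at 1.75 ± 0.84, which with array class as a term were 0.30 and -1.36. None of these genes was called with 9 arrays, and Col1a2 passed in the 6-array fit. Serpinh1, the chaperone of collagen folding, stood at 11.77, 12.11 and 12.07 under restriction against 13.09, 12.68 and 13.46 in older controls (-1.09 ± 0.24, limma adjusted p = 0.13), and passed in the 6-array fit.

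Osteoclast genes were lower for 10 of 12 measured members with a median of -0.45. With arrays centred on their median it was 0.11, beside 0.65 over all genes. The defining enzymes Acp5 and Ctsk, which break down bone, were the higher members, at 0.39 ± 0.68 and 0.19 ± 0.34 with overlap between the groups. Tnfrsf11a, the receptor through which osteoclasts form, stood at 9.14, 9.51 and 9.33 against 10.35, 10.09 and 10.76 in older controls and 10.31, 10.67 and 10.02 in young controls, and did not pass in either fit. Bone formation genes were higher for 9 of 16 measured members with a median of 0.14 (-0.08 with a filter at the 60th percentile, 0.26 without CR 1, 0.03 without CR 2 and 0.33 without MC 2). Ibsp, bone sialoprotein, stood at 11.22, 10.48 and 11.16 against 8.49, 10.01 and 9.64, and its other probe set was at -0.40. DNA replication and mitosis genes were lower for 25 of 33 measured members with a median of -0.28 (0.27 with arrays centred on their median, -0.91 with array class as a term, -0.51 without CR 1 and -0.14 without CR 2). In the 6-array fit 4 of them, or 12.1%, were called lower, against 4.01% of all genes.

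Clock genes were higher for 13 of 18 measured members with a median of 0.23, which was -0.30 with array class as a term, 0.14 without MC 1 and 0.39 without MC 2. Nr1d2, a repressor of the clock, stood at 13.32, 13.64 and 13.28 against 12.78, 11.90 and 12.28 and passed in the 6-array fit. Fatty acid and cholesterol synthesis genes were higher for 24 of 29 measured members with a median of 0.35, and -0.27 with array class as a term. In the insulin-like growth factor axis 10 of 19 genes were higher, and Igf2r, the receptor that clears Igf2, stood at 11.21, 11.57 and 11.46 against 12.21, 12.31 and 12.30 (-0.86 ± 0.24, with its other probe set at 0.58).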
